A study of Nannochloropsis oceanica with 18 samples.

Results

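The 51 genes described here are nuclear gene models of the marine alga Nannochloropsis oceanica, strain IMET1, that the deposited annotation calls ribosomal proteins without placing them in the 40S or 60S subunit of the cytosolic ribosome. They were taken from 9756 gene models by their annotation text, and 4 further models were dropped because they are kinases or methyltransferases of a ribosomal protein. Of the 51, 28 have a name that gives 30S, 50S, chloroplast, plastid or mitochondrial and are called organelle-named below. The remaining 23 give no compartment of that kind and are called unclassified. No measured value entered this rule, although it was set with earlier results of these data known.

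The cultures were wild-type IMET1, first kept at 5% CO2 in air and, after washing, held for 1 h at 5% CO2 in fresh medium, which gave the 0 h samples. They were then aerated under continuous light with 0.01% CO2 (very low CO2, VLC) or left at 5% CO2 (high CO2, HC) and sampled at 3, 6, 12 and 24 h. Poly(A) RNA of 2 cultures was sequenced for each of the 9 groups, which gave 18 libraries. Per the study's methods each culture was sampled at every time, so libraries of different times can come from the same culture. The model treated them as independent. Which culture gave which library is not stated in the sources used here, so p-values measure the spread between these libraries.

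Algal cells run separate ribosomes in the cytosol, the plastid and the mitochondrion. Plastid and mitochondrial ribosomes descend from bacterial ones, and the subunits of the plastid ribosome are called 30S and 50S. Plastid ribosomes make core proteins of the photosystems and of Rubisco. Some of their proteins are encoded in the plastid genome itself, while the others are encoded in the nucleus, made on cytosolic ribosomes and imported. In the RefSeq organelle genomes of this species (assembly ASM5162214v2), the plastid genome lists 43 ribosomal protein genes and the mitochondrial genome 16. For 14 of the 28 organelle-named nuclear genes, the plastid genome lists a protein of the same name, and for none does the mitochondrial genome. Where the nuclear products go in the cell was not tested. Ribosomal proteins are numbered separately in bacterial-type and in cytosolic ribosomes, so a name such as L27 or S18 alone does not say which ribosome is meant.

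Expression is given as FPKM (fragment counts divided by transcript length and by library size), which allows levels to be compared between genes. FPKM are shares of a library, so less of a transcript per cell and more of the other transcripts cannot be told apart in these bulk samples, and neither can a change in some cells from one in all of them. A gene was called when limma gave an adjusted p of 0.05 or less and a change of at least 2-fold on log2(FPKM + 1). All 51 members were measured well enough to be tested in every comparison. None was at 0 in a library, the lowest value was 6.27 FPKM, and 1 member (g1164) went below 10 FPKM in any library. The number of gene models listed at 0 ran from 35 to 84 per library. The deposited values come without their sequencing depth. The study's supplement lists aligned reads per library, which were not used here. Replicate libraries differed by a median of 0.05 to 0.11 on the log2 scale over genes of at least 10 FPKM, but by 0.23 in HC at 3 h, where single members differed by up to 1.14. In HC at 12 h the FPKM of most genes stood lower than elsewhere, and the median difference of VLC from HC on log2(FPKM + 1) over the genes tested was 0.58 at that time, against 0.09 at 24 h. At 12 h each call is therefore given as measured and again after this median was subtracted.

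The unclassified members parted into a large group that at 24 h was far below HC in the VLC libraries and a few genes that were not. At 24 h 17 of the 23 unclassified genes were lower in VLC and 1 was higher, while 5.95% of the 8220 genes tested were lower and 11.2% were higher. The median log2 ratio of the 23 was -2.15, against 0.10 for all genes tested. None of the 28 organelle-named genes was called at 24 h, and their median log2 ratio was -0.19. Among the 55 proteins that the annotation does place in the 40S or 60S subunit, 52 were lower and none was higher, with a median of -2.14.

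**Figure D1:**
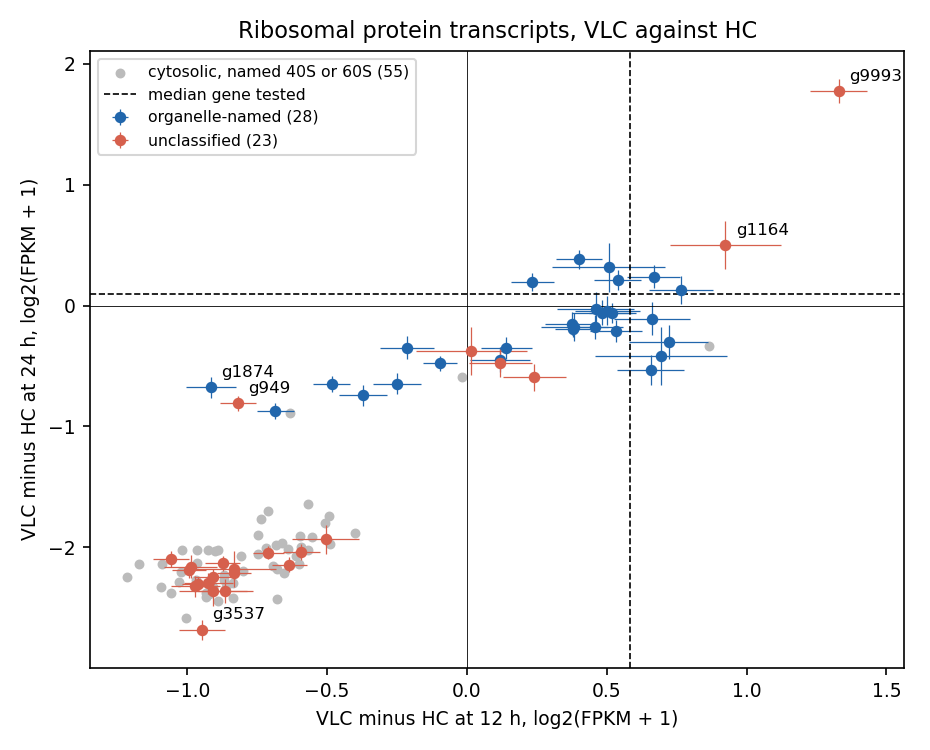
VLC minus HC at 12 h (horizontal axis) and at 24 h (vertical axis) on the log2(FPKM + 1) scale, with standard errors from limma, for the 28 organelle-named genes (blue), the 23 unclassified genes (red) and the 55 genes named 40S or 60S (grey). The 17 unclassified genes lower at 24 h lie between -2.68 and -1.93 on the vertical axis, where most grey points lie, and the organelle-named genes lie between -0.87 and 0.38.

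The 17 genes lower at 24 h had been abundant at the start. Their mean FPKM at 0 h ran from 252.5 to 2180, with a median of 787. At 24 h the range was 79.1 to 465 in VLC (median 189.7) and 365 to 1778 in HC (median 1048). In each of the 17, both VLC libraries lay below both HC libraries. The 17 were picked by these same values, so this is no further evidence. The 17 were L12, L18 (2 genes), L27, L30, L34, L35, L38, L9, P1, S7, S12, S14-like, S15, S18, S20 and S27.

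Within the 17, 1 annotation (L18 of g7705) says cytoplasmic, and 1 (g9871) gives the acidic protein P1, known from cytosolic ribosomes of eukaryotes. S27 (g3478) and L38 (g6375) are names in use for cytosolic as well as mitochondrial ribosomes and do not by themselves place these genes. P1 is a stalk protein of the large subunit that helps to recruit elongation factors. Its transcript g9871 stood at 1420 and 1520 FPKM at 0 h, at 267 and 294 in VLC at 24 h and at 1410 and 1484 in HC at 24 h. HC had thus returned to the 0 h level while VLC stayed low. The difference was -2.36 on the log2 scale (SE 0.12, adjusted p = 1.4e-09).

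The largest fall was that of g3537, annotated as ribosomal protein S12 (scaffold00096, 255806 to 257214). Its FPKM was 724 and 674 at 0 h, 185 and 194 in VLC at 24 h, and 1236 and 1209 in HC at 24 h. HC libraries thus lay above the start and VLC libraries far below it. The log2 difference was -2.68 (SE 0.08, adjusted p = 1.0e-11). Acidic P1 (g9871), S20 (g325, -2.36, SE 0.10) and L12 (g8346, -2.32, SE 0.09) came next. L12 (scaffold00295, 90127 to 91041) stood at 225 and 247 FPKM in VLC against 1195 and 1175 in HC.

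The most abundant member of all was g9004, rps15 (scaffold00324, 490902 to 491798). It held 2206 and 2153 FPKM at 0 h, 450.3 and 481 in VLC at 24 h and 1768 and 1788 in HC at 24 h. Both arms were thus below 0 h at 24 h, VLC by much more, and the log2 difference of -1.93 (SE 0.12, adjusted p = 9.8e-09) was the smallest of the 17. The protein annotated RS7 (g3790) stood at 213 and 211 FPKM in VLC and at 1048 in each HC library at 24 h, and the protein annotated L27 (g7599) at 295 and 299.6 against 1224 and 1232. The log2 differences were -2.30 and -2.04 (SE 0.06 for each). The members just inside and just outside the group were far apart at 24 h, with log2 values of -1.93 (g9004) and -0.81 (g949).

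The time courses showed when the arms separated. At 3 h and 6 h no member of either set was called between VLC and HC, while 0.701% of genes were higher and 0.268% lower at 3 h, and 1.84% were higher and 0.252% lower at 6 h. At 3 h 13 organelle-named and 12 unclassified genes, and at 6 h 2 and 1, had an unadjusted p below 0.05 in limma. The share of all genes with such a p was not counted, so these counts cannot be read as a trait of the members. Without replicate 2 of HC at 3 h, 1 unclassified gene was called lower at 3 h, the 37S protein g10234, whose 2 HC libraries there held 49.2 and 26.3 FPKM. Its VLC libraries at 3 h held 24.2 and 23.1 FPKM, so that the difference rested on HC replicate 1.

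Between 6 h and 12 h the level of the 17 genes went down in both arms. Their median over members went from 1013 to 220.2 FPKM in VLC and from 1024 to 379 in HC. From 12 h to 24 h it went from 379 to 1048 in HC and from 220.2 to 189.7 in VLC. Each of the 17 was higher at 24 h than at 12 h in HC (log2 ratio of mean FPKM 0.57 to 1.69). In VLC 12 of the 17 were lower (-0.78 to 0.36 over the 17). All 28 organelle-named genes and the 6 other unclassified genes were also higher at 24 h than at 12 h in HC. In VLC 11 of those 28 and 1 of those 6 were lower. The 17 were picked by their values at 24 h, and the share of all genes was not counted.

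**Figure D2:**
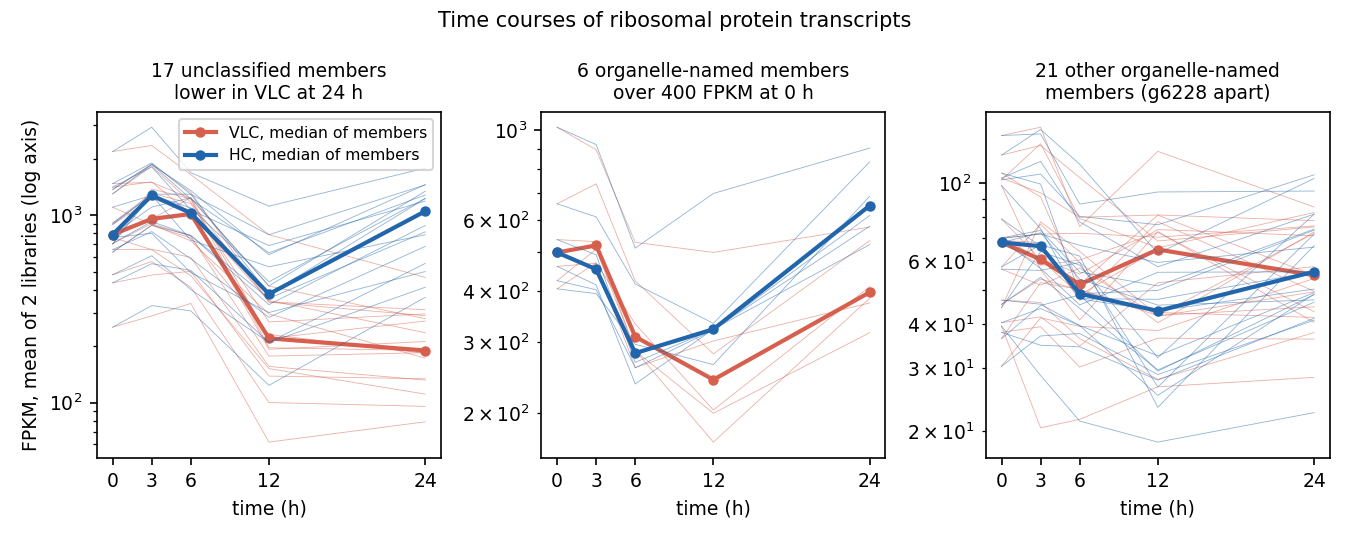
FPKM (mean of 2 libraries, log axis) against time in VLC (red) and HC (blue), with a thin line per gene and a thick line for the median over members, for the 17 unclassified genes lower at 24 h, the 6 organelle-named genes above 400 FPKM at 0 h and the other 21 organelle-named genes apart from g6228. In the left panel the HC median goes from 379 FPKM at 12 h to 1048 at 24 h while the VLC median goes from 220.2 to 189.7, and in the middle panel both medians are higher at 24 h than at 12 h.

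At 12 h the call depended on the reference. As measured, 1 unclassified gene was lower in VLC than in HC (S18, g2685) and 1 was higher (L34, g9993), while 4.36% of the 8409 genes tested were lower and 27.6% were higher. The 17 genes lay between -1.06 and -0.51 on the log2 scale, and 16 of them did not reach 2-fold. The S18 call was lost without replicate 2 of VLC at 12 h, and without replicate 1 of that group S27 (g3478) and L35 (g10123) were called as well, as L35 was without replicate 2 of HC at 12 h. Relative to the median gene 18 unclassified genes were lower and none was higher, while 11.4% of all genes were lower and 8.85% higher. The 18 are the 17 genes described above and rpL10 (g949). With no rule on size, 18 unclassified genes had an adjusted p of 0.05 or less below 0, where 14.3% of all genes did, and 2 above 0, where 65.6% did.

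S18 (g2685, scaffold00080, 593257 to 596263) stood at 479.5 and 481 FPKM at 0 h, at 104.5 and 96.0 in VLC at 12 h and at 211 and 208 in HC at 12 h. Both arms were below the start and VLC below HC. The difference was -1.06 (SE 0.06, adjusted p = 6.4e-09). At 24 h S18 remained at 93.7 and 97.5 FPKM in VLC and was at 401 and 424 in HC.

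Whether the VLC to HC difference changed from 12 h to 24 h was tested directly. It became more negative by at least 1 on the log2 scale in 17 unclassified genes and 3 organelle-named genes, where 25.3% of 9109 genes did so, and more positive in none, where 6.14% did. The 17 are those lower at 24 h. Measured from the median gene, which itself shifted by -0.58, 1 unclassified gene (S12, g3537) and no organelle-named gene was lower, against 4.64% of all genes, and 1 (L34, g9993) was higher, against 12.9%. Among the members S12 changed most, by -1.73 (SE 0.12, adjusted p = 6.8e-08), followed by S14-like g1761 (-1.51, SE 0.09) and S20 g325 (-1.50, SE 0.14). S18 (g2685) and the organelle-named S15 (g5649) lost the call as measured without replicate 2 of HC at 24 h or replicate 1 of VLC at 12 h, and S15 also without replicate 1 of HC at 12 h.

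Against 0 h most unclassified genes were lower in both arms at 12 h and, at 24 h, in VLC. In VLC 20 of 23 were lower and none was higher at 12 h, where 15.6% and 28.8% of all genes were, and 18 were lower and 1 higher at 24 h, where 14.8% were lower and 20.8% higher. In HC 15 were lower at 12 h, where 36.4% of all genes were, and none was called at 24 h, where 11.3% were lower and 14% higher, although 16 had an unadjusted p below 0.05. Counted from the median gene, the same 20 genes of VLC at 12 h (18.9% of all genes) and the same 18 lower and 1 higher at 24 h (16.6% and 19.1%) were called, but in HC at 12 h g1164 alone was (21.4%). As measured, L12 (g8346), L35 (g10123) and L34 (g10271) lost the call in HC at 12 h without replicate 2 of 0 h. At 3 h no unclassified gene was called against 0 h in either arm. Of all genes 9.95% were higher and 4.86% lower in VLC, and 8.18% higher and 3.71% lower in HC. At that time 14 unclassified genes in VLC and 18 in HC had an unadjusted p below 0.05. For the counts of unadjusted p given here, the share of all genes was not counted. At 6 h g1164 and g949 were lower in both arms, where 16.5% of all genes were in VLC and 15.7% in HC. Summed over the set, the unclassified genes held 2.41% and 2.42% of a library's FPKM at 0 h, 0.73% and 0.75% in VLC at 24 h and 2.87% and 2.92% in HC at 24 h.

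The 6 unclassified genes outside the group of 17 had a lower median level at 0 h. Their mean FPKM at 0 h ran from 45.7 to 308, with a median of 64.7. This range overlapped that of the 17, which was 252.5 to 2180 with a median of 787. The split was made by the call at 24 h, so a different time course in the 6 is no further evidence. They are rpL10 (g949), L9p (g6750), L3 (g9215), a 37S protein (g10234), a protein of the L7Ae family (g1164) and the putative L34 (g9993).

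The putative L34 g9993 (scaffold00354, 52326 to 53541) was the only member called higher in VLC than in HC. It stood at 77.7 and 80.5 FPKM at 0 h, at 82.3 and 79.6 in VLC against 33.7 and 29.6 in HC at 12 h, and at 199.6 and 186 in VLC against 57.4 and 54.0 in HC at 24 h. VLC libraries were at the 0 h level at 12 h and above it at 24 h, whereas HC libraries were below it at both times. VLC was higher by 1.78 at 24 h (SE 0.10, adjusted p = 4.5e-09) and by 1.33 at 12 h, which was 0.74 relative to the median gene and then not called. Against 0 h it was higher in VLC at 24 h by 1.28 (SE 0.10, adjusted p = 5.9e-08). The other L34 (g10271), among the 17, stood at 132 and 136 FPKM in VLC and at 544 and 561 in HC at 24 h. The L34 genes thus went opposite ways.

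rpL10 (g949) took after the abundant organelle-named genes described below. In bacteria L10 holds the stalk of the large subunit. It stood at 311 and 305 FPKM at 0 h, 127 and 134 in VLC against 230.3 and 230.4 in HC at 12 h, then 179.5 and 183 in VLC against 319 and 317 in HC at 24 h. VLC was below HC at both times, with log2 differences of -0.82 (SE 0.06, adjusted p = 6.9e-08) and -0.81 (SE 0.06, adjusted p = 1.2e-07), and FPKM in both arms were higher at 24 h than at 12 h. Its 12 h value relative to the median gene was -1.40, which was called.

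The other 4 of the 6 were not called between VLC and HC. L3 (g9215), a protein of the large subunit, had 37.1 and 38.0 FPKM in VLC against 51.9 and 53.2 in HC at 24 h (-0.47, SE 0.11, adjusted p = 0.0024), and L9p (g6750) had 69.0 and 70.1 against 112 and 99.4 (-0.59, SE 0.11, adjusted p = 0.00041). The 37S protein g10234, a name that in Saccharomyces cerevisiae belongs to the small subunit of the mitochondrial ribosome, was at 44.5 and 46.9 FPKM at 0 h, 18.4 and 19.4 in VLC against 25.9 and 23.7 in HC at 24 h. It was lower than 0 h in VLC at 12 h and 24 h (-1.23 at 24 h, SE 0.20, adjusted p = 6.3e-05) and also in HC at 12 h (-1.29, SE 0.20, adjusted p = 2.7e-05), the last not called relative to the median gene (-0.77). The L7Ae family, to which g1164 belongs, includes RNA-binding proteins of ribosomes and of other RNA-protein particles. It was at 50.2 FPKM in both libraries at 0 h, 12.5 and 6.27 in HC against 18.8 and 16.9 in VLC at 12 h, and 54.2 and 53.6 in VLC against 38.8 and 36.8 in HC at 24 h. It was lower than 0 h at 6 h and 12 h in both arms and not called at 24 h, and without replicate 1 of HC at 12 h it was called higher in VLC at 12 h.

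The organelle-named genes as a set moved little between VLC and HC. None of the 28 was called in the 4 comparisons of VLC with HC. With no rule on size, at 12 h 19 had an adjusted p of 0.05 or less above 0 and 5 below 0, where 65.6% and 14.3% of all genes did, and at 24 h 4 and 11 did, where 36% and 28.3% of all genes did. At 3 h 3 did above 0 (g1874, g8387 and g6228) and none below, where 7.32% and 7.34% of all genes did. Their median log2 ratio was 0.44 at 12 h and -0.19 at 24 h, against 0.61 and 0.10 for all genes tested. At 24 h 22 of the 28 lay below 0, where 3605 of the 8220 genes tested did. Taken relative to the median gene, 3 of the 28 were lower at 12 h (S1 g1874, S15 g3060 and L28 g856), where 11.4% of all genes were. As a share of a library's FPKM the set held 0.72% and 0.74% in VLC and 0.95% in each HC library at 24 h.

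The organelle-named genes divided by level, and the division was chosen after their values were seen. Above 400 FPKM at 0 h were 6 genes, L28 (g856), plastid S1 (g8387), S15 (g3060), L17 (g4480), S1 (g1874) and chloroplast L15 (g1529), with 406 to 1017 FPKM. The other 22 ran from 25.6 to 136 FPKM. The 6 lay below 0 in VLC against HC at 12 h (-0.92 to -0.10) and at 24 h (-0.87 to -0.48), and the plastid genome lists none of their proteins. The 14 genes with a namesake in the plastid genome had 30.4 to 136 FPKM at 0 h. All lay above 0 at 12 h (0.12 to 0.76, median 0.47), where the median gene was at 0.58. At 24 h 10 of the 14 lay below 0 (-0.53 to 0.38).

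**Figure D3:**
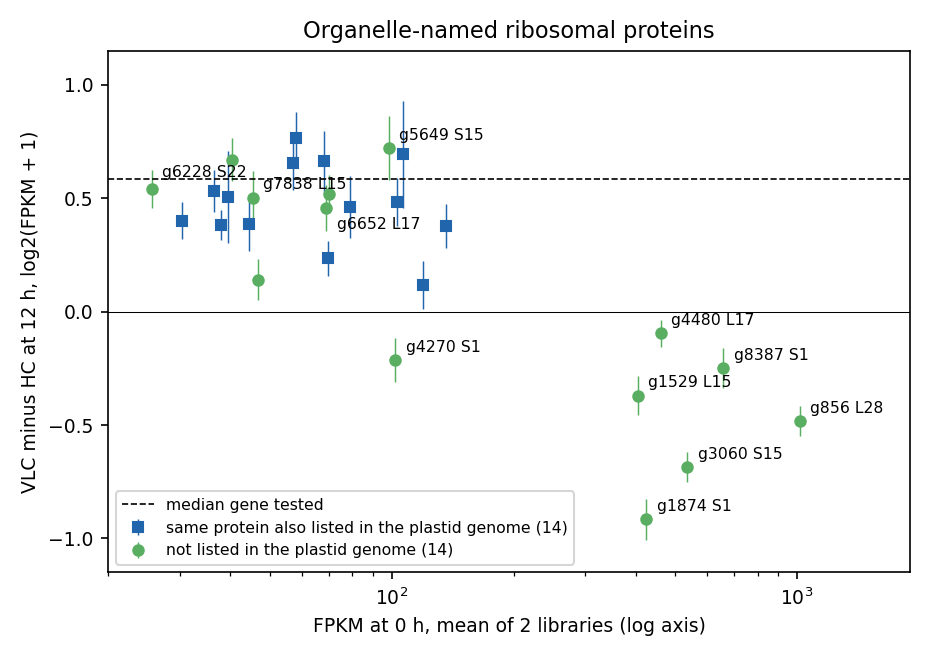
VLC minus HC at 12 h (log2(FPKM + 1), with standard errors from limma) against FPKM at 0 h (log axis) for the 28 organelle-named genes. Squares are the 14 genes whose protein the plastid genome also lists, all between 0.12 and 0.76, and circles are the other 14, of which the 6 above 400 FPKM lie between -0.92 and -0.10.

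In bacteria S1 binds mRNA on the small subunit and helps to start translation. The annotation gives 3 genes for it. The first, g1874 (scaffold00043, 986102 to 989173), stood at 436.5 and 413 FPKM at 0 h, 173 and 166 in VLC against 322.5 and 319 in HC at 12 h, then 379 and 390.1 in VLC against 616 and 615 in HC at 24 h. VLC was below HC at both times, and FPKM in both arms were higher at 24 h than at 12 h. The difference was -0.92 at 12 h (SE 0.09, adjusted p = 5.6e-07), or -1.50 when counted from the median gene. It was -0.68 at 24 h (SE 0.09, adjusted p = 1.7e-05).

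Plastid S1 (g8387, scaffold00295, 184674 to 186643) was at 669.9 and 646 FPKM at 0 h, 509 and 558.5 in VLC against 839 and 832 in HC at 24 h. VLC libraries lay below the start and HC libraries above it, with a difference of -0.65 (SE 0.09, adjusted p = 2.0e-05). The third S1 (g4270) was less abundant, with 101 and 103 FPKM at 0 h, 82.8 and 82.3 in VLC against 108.5 and 102 in HC at 24 h. Its difference was smaller, at -0.35 (SE 0.10, adjusted p = 0.0059).

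L28 (g856, scaffold00009, 1448166 to 1449641), a protein of the large subunit, was the most abundant organelle-named gene, with 981 and 1053 FPKM at 0 h. It was at 505 and 493 in VLC against 701 and 695 in HC at 12 h, and at 575.5 and 577 in VLC against 928 and 878.5 in HC at 24 h. The arms did not overlap at either time. The difference was -0.48 at 12 h (SE 0.07, adjusted p = 1.4e-05) and -0.65 at 24 h (SE 0.07, adjusted p = 1.5e-06). S15 (g3060) was lower still in VLC, at 309 and 323 FPKM against 576 and 582 in HC at 24 h, with a log2 difference of -0.87 (SE 0.07, adjusted p = 7.5e-08), which fell short of 2-fold.

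For 4 names an abundant and a scarce gene shared the protein name, and in 3 of the pairs they stood on opposite sides of 0 at 12 h. The comparison of pairs was chosen after their values were seen. S15 is g3060 (537 FPKM at 0 h) and g5649 (98.3 FPKM), with log2 values at 12 h of -0.69 and 0.72. L15 is g1529 (406 FPKM) and g7838 (45.5 FPKM), with -0.37 and 0.50. L17 is g4480 (461 FPKM) and g6652 (68.9 FPKM), with -0.10, which is close to 0, and 0.46. In these 3 the scarce gene lay near the median gene and the abundant one below it. The pair of S1, g1874 (425 FPKM) and g4270 (102 FPKM), lay on the same side, at -0.92 and -0.21, and both of its genes were below the median gene. Plastid S1 (g8387), also abundant, was left out of the pair. Its means at 12 h were 280.3 FPKM in VLC and 333.4 FPKM in HC.

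Among the scarcer organelle-named genes, L1, L11 and L4 of the large subunit were called in no comparison. L1, which in bacteria forms the stalk beside the exit site of transfer RNA, is g6706 and stood at 36.6 and 36.2 FPKM at 0 h, 40.95 and 42.6 in VLC against 48.5 and 48.4 in HC at 24 h (-0.21, SE 0.09, adjusted p = 0.062). L11, at the site where translation factors bind, is g6420 and stood at 141 and 131 FPKM at 0 h, 82.3 and 88.8 in VLC against 94.6 and 95.1 in HC at 24 h (-0.15, SE 0.10, adjusted p = 0.19). L4 (g5327), which in bacteria lines part of the exit tunnel, was at 29.7 and 31.1 FPKM at 0 h, 51.4 and 56.1 in VLC against 39.6 and 42.4 in HC at 24 h. Of these, L4 alone was higher in VLC (0.38, SE 0.08, adjusted p = 0.0011), by less than 2-fold.

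L27 of the 50S subunit (g9293), which in bacteria reaches toward the site of peptide bond formation, was among the 3 organelle-named genes whose difference changed from 12 h to 24 h. It stood at 59.2 and 55.2 FPKM at 0 h, 42.1 and 42.2 in VLC against 30.1 and 23.1 in HC at 12 h, then 50.1 and 48.5 in VLC against 71.6 and 71.9 in HC at 24 h. VLC was thus above HC at 12 h and below it at 24 h, a change of -1.19 (SE 0.17, adjusted p = 4.2e-05), which was -0.61 relative to the median gene and not called. The unclassified L27 (g7599), by contrast, was below HC at both times. The 2 mitochondrial names, L46 (g8563) and L24 (g7473), were called in no comparison, with -0.35 (SE 0.09, adjusted p = 0.0042) and -0.06 (SE 0.08, adjusted p = 0.55) at 24 h.

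Against 0 h 1 organelle-named gene stood apart. The gene g6228 (scaffold00214, 521350 to 523443), annotated as plastid rpS22, was the least abundant of the set at 0 h, with 24.2 and 27.02 FPKM. The VLC libraries held 213 and 214 FPKM after 3 h, 283 and 336 after 6 h, 412.5 and 430.5 after 12 h, then 334 and 354 after 24 h. The HC libraries held 167 and 178 FPKM after 3 h, 275 and 301 after 6 h, 298 and 281 after 12 h, then 299 and 295 after 24 h. It rose within 3 h in both arms and stayed high. The protein once named S22 in spinach plastid ribosomes resembles bacterial factors that keep ribosomes inactive, and whether g6228 is its counterpart was not tested.

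The rise of g6228 was called in all 8 comparisons with 0 h, from 2.70 in HC at 3 h (SE 0.08, adjusted p = 1.0e-10) to 3.99 in VLC at 12 h (SE 0.08, adjusted p = 2.3e-13). Between VLC and HC it differed by 0.54 at 12 h (SE 0.08, adjusted p = 4.9e-05) and by 0.21 at 24 h (adjusted p = 0.042), neither of them called. The 8 comparisons share the 0 h libraries. No other organelle-named gene was higher than 0 h at any time. Of all genes tested, 9.95% in VLC against 8.18% in HC were higher after 3 h, 21.1% against 20.4% after 6 h, 28.8% against 22.4% after 12 h, then 20.8% against 14% after 24 h.

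**Figure D4:**
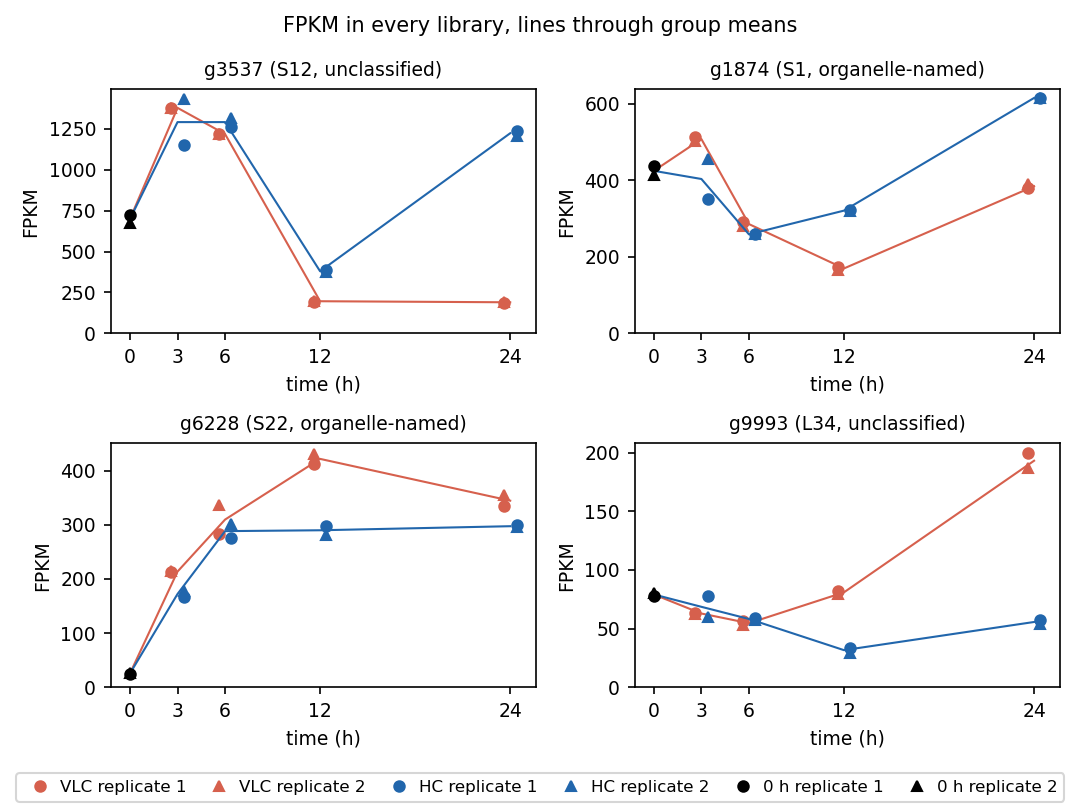
FPKM in every library against time for S12 (g3537), S1 (g1874), S22 (g6228) and L34 (g9993), with circles and triangles for replicates 1 and 2, VLC in red, HC in blue and 0 h in black, and lines through the group means. At 24 h S12 is at 185 and 194 in VLC against 1236 and 1209 in HC, and L34 at 199.6 and 186 against 57.4 and 54.0, while S22 goes from 24.2 and 27.02 at 0 h to at least 167 in every later library.

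Between 0 and 5 organelle-named genes were lower than 0 h in a comparison. In VLC 2 were lower at 6 h (16.5% of all genes), 4 at 12 h (15.6%) and 1 at 24 h (14.8%), and in HC 3 at 6 h (15.7%), 5 at 12 h (36.4%) and none at 24 h (11.3%). The 4 of VLC at 12 h were S1 (g1874, -1.32, SE 0.09), S15 (g3060, -1.42, SE 0.07), plastid S1 (g8387, -1.23, SE 0.09) and L28 (g856, -1.02, SE 0.07), all from the abundant 6. L28 was no longer called without replicate 2 of 0 h, where L15 (g1529) was called in its place. The 5 of HC at 12 h were L33 (g1082), S18 (g4983), S15 (g5649), L27 (g9293) and L20 (g9562), none of them from the abundant 6 and none called relative to the median gene. In VLC at 6 h, L20 (g9562) was not called without replicate 1 of that group or without replicate 2 of 0 h. In VLC at 24 h it was called, beside S15 (g5649), without replicate 2 of that group or without replicate 1 of 0 h. In HC at 6 h the call of S15 g3060 was lost without replicate 2 of either HC at 6 h or 0 h, and that of S15 g5649 without replicate 1 of 0 h. In HC at 12 h L33 was not called without replicate 1 of that group or replicate 2 of 0 h, nor L27 without replicate 2 of that group. Over all comparisons with 0 h or between the arms, 18 of the 28 organelle-named and 2 of the 23 unclassified genes were never called, as were 20.6% of the 6553 genes tested in all of these comparisons.

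The factors that work with bacterial-type ribosomes were examined as a list of 22 annotations. It includes a eukaryotic release factor (g5142) and a chitinase with a ribosome-binding factor name (g1012), which do not belong to organelle translation by name. At 24 h 2 of the 21 tested were lower in VLC than in HC and none was higher, where 5.95% and 11.2% of all genes were, with a median log2 ratio of -0.15. They were an elongation factor Tu (g1008, -1.23, SE 0.15, adjusted p = 9.3e-06), which brings transfer RNA to the ribosome, and the eukaryotic release factor. At 12 h 5 of 18 were higher as measured (median 0.72), close to the 27.6% of all genes, and relative to the median gene these 5 were not called while g1012 was lower.

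Against 0 h 4 of 21 factors in VLC and 5 of 21 in HC were lower at 6 h, where 16.5% and 15.7% of all genes were. At 12 h 8 of 20 were lower in VLC and 15 of 20 in HC, where 15.6% and 36.4% of all genes were, and relative to the median gene 9 and 11 were, where 18.9% and 21.4% were. Plastid elongation factor G (g162), which moves the ribosome along mRNA, was at -2.46 in VLC and -2.83 in HC at 6 h, and at -2.49 and -3.43 at 12 h (SE 0.09 for each), and was not called at 24 h in either arm. Elongation factor Ts (g6305), which recharges factor Tu, followed the same order, at -2.28 and -2.63 at 6 h (SE 0.15 for each). Genes of the same names differed. Another Ts (g1171) was at -0.37 in VLC and -0.38 in HC at 6 h, not called. At 12 h it was called lower, at -1.22 and -1.57 (SE 0.07 for each). Another elongation factor G (g10027) was at 0.11 and 0.30 at 6 h. At 12 h it was at 0.19 and -0.62 (SE 0.09 for each), and it was called at neither time. The ribosome recycling factor (g5093), which splits ribosomes after termination, was higher than 0 h in VLC at all 4 times (1.02 to 1.58) and in HC at 3, 6 and 24 h (1.18 to 1.92).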

How the data were processed

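The deposited files hold FPKM per gene and library. Per the labels and the study's methods, poly(A) RNA was sequenced with strand-nonspecific paired-end libraries, and the authors used TopHat2 (version 2.0.4) to align the reads to the IMET1 genome, discarded those with several mapping places and computed FPKM with Cufflinks (version 2.0.2 in the submitters' processing notes, another version in the methods). Without strand, reads of overlapping genes cannot be told apart, and leaving out multi-mapped reads can lower near-identical gene copies. Coordinates are those of the deposited tables, counted from 1. Genes averaging below 0.3 FPKM were compared with the first 0 h library by their log2 ratio, counted in narrow bins. The fullest bin held 8.57% to 40% of them, depending on the library. No bin held most of these genes, and read counts per gene were not recovered. Aligned reads per library are listed in the study's supplement and did not enter the fit.

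Here log2(FPKM + 1) of all 9756 genes and 9 groups was fitted in 1 model with limma 3.58.1 (R 4.3.3, variance trend). The p-values were adjusted by Benjamini-Hochberg within a comparison over all genes that averaged 10 FPKM or more in either group. The call needed an adjusted p of 0.05 or less together with a 2-fold change. List medians are of log2 ratios of mean FPKM. For values relative to the median gene, the median over genes tested was subtracted before the test and the size rule. The model was tested on simulated libraries that were independent of each other and had no shift common to most genes. That test could not address the level of HC at 12 h or shared cultures. Tables and plots came from pandas 2.3.3, numpy 2.4.6 and matplotlib 3.10.9 (Python 3.11.15).

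The members and lists were chosen with earlier results of these data known. Genes named were members with the names S1, S4, S7, S12, L1, L2, L10, L11 or L27. Up to 4 called rises and falls per set at 12 h and 24 h were named as well. So were the 3 highest and 2 lowest at 0 h per set and those called against the direction of their set. The last were the 3 per direction whose VLC to HC difference changed most from 12 h to 24 h. The other members named were chosen after their values were seen. Alternatives were a pseudocount of 0.1, mean FPKM of at least 1, no filter, values relative to the median gene, only the groups compared, a replicate block, and leaving out each library.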

Additional observations from a re-analysis of the deposited data

Results flagged for a closer look

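The difference between VLC and HC was not the same at 12 h and 24 h for part of the members, by limma's test of the change itself. It became lower by at least 1 on the log2 scale in 17 unclassified and 3 organelle-named genes, and relative to the median gene in 1 and 0. The largest changes among the members were those of S12 (g3537, -1.73), S14-like (g1761, -1.51) and S20 (g325, -1.50). Relative to the median gene they were -1.16, -0.93 and -0.92, so that the first was still called and the other ones were not. Both VLC libraries at 24 h lay below both HC libraries in all of these 3 genes, which are among the 17 picked by the values at 24 h. The low level of most transcripts in HC at 12 h moves with these values, and its part in them was not tested beyond the values relative to the median gene.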

How the results depend on the processing

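The 17 unclassified genes lower and the 1 higher in VLC at 24 h were unchanged under all alternatives run. Other counts moved relative to the median gene. At 12 h organelle-named genes lower went from 0 to 3 and unclassified genes from 1 to 18 lower and from 1 to 0 higher. For the change from 12 h to 24 h organelle-named genes lower went from 3 to 0 and unclassified genes from 17 to 1 lower and from 0 to 1 higher. Against 0 h organelle-named genes lower went from 1 to 2 in VLC at 24 h, from 3 to 5 in HC at 6 h and from 5 to 0 in HC at 12 h, where unclassified genes lower went from 15 to 1. In each case the subtracted median is the difference. With a pseudocount of 0.1, unclassified genes lower at 12 h went from 1 to 2, and the cause was not tested. Leaving out each library gave 0 to 1 unclassified genes lower at 3 h, and 1 to 2 higher and 0 to 3 lower at 12 h. Against 0 h it gave 0 to 1 organelle-named lower and 0 to 1 unclassified higher in VLC at 3 h, 1 to 2 organelle-named lower in VLC at 6 h and at 24 h, 0 to 1 unclassified higher in HC at 3 h and 0 to 1 organelle-named lower in HC at 24 h. The HC value at 3 h (S12, g3537) appeared without replicate 1 of that group, and the HC value at 24 h (S15, g5649) without its replicate 2 or replicate 2 of 0 h. Without replicate 1 of 0 h, L33 (g1082) was lower and S12 (g3537) higher in VLC at 3 h. A lone library is assumed to vary like the other groups. Of 1290 alternative values of 121 single results, 1233 kept their call and direction, 57 lost the call (39 relative to the median gene, 18 without a library) and 0 reversed. With the replicate block, the counts of members lower at 24 h stayed at 17 and 0, and it changed 0 of 52 counts. Same-numbered libraries did not deviate together (r from -0.20 to 0.16 over 36 pairs of groups, 1 above 0.1), so the numbers were not read as pairs.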
